A study of Mus musculus with 36 samples.

Results

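The mRNAs of Dcp1a, Ppil1, Pcsk1n, Wdr45, Nebl, Pde3b, Exph5 and Anapc5 were selected on the level of their ribosome-protected fragments (RPFs) in the pellet of a sucrose gradient, which differed between WT and FMR1 KO mouse brain. They are 8 of the 16614 genes in the count table. As far as is known, the choice used the pellet libraries of the standard preparation and their occupancy (pellet RPFs relative to whole-brain RNA-seq), although the grounds on which Exph5 and Anapc5 were chosen are not given, so the values of those contrasts are given for the 8 mRNAs as a description, with no test. Tests were made on the libraries that the choice is not known to have used.

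Brains were taken at postnatal day 5 from C57BL/6 mice (WT) and from FMR1-KO mice, which lack a working Fmr1 gene. Each preparation pooled 10 brains. RPFs were sequenced from the pellet (ribosome clusters that sediment through the gradient, labelled Granule) and from fraction 5/6 (labelled Polysome), and RNA-seq was made from whole brain. In the standard preparation the buffer held 10 mM MgCl2 and the nuclease digestion was stronger, and in the low preparation it held 2.5 mM MgCl2 and the digestion was weaker. Every combination of genotype, sample type and preparation had 3 libraries, giving 24 RPF libraries and 12 RNA-seq libraries. The 3 RPF replicates of a group received different linkers and were then combined for the later steps, so genotype and the combined pool cannot be told apart, and p-values measure the spread between libraries that shared those steps.

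RPF libraries held between 6765065 and 62310787 counts. A single gene, Cdk8, took from 43.7 to 63.4% of counts in the standard pellet and from 36.7 to 59.2% in the standard fraction 5/6, but at most 5.62% of the low RPF libraries. Levels are therefore given as CPM, the gene's count over the library's total without Cdk8, scaled to a total of 1000000. CPM is not per length, so levels of different genes are not compared as amounts. For some gene pairs below, counts and CPM are set side by side to describe how they vary together. Neuronal markers summed to between 4377 and 5540 CPM in the standard RNA-seq libraries, and 0 of the 5 neuronal markers was undetected there. Fmr1 was at 67.8, 67.1 and 64.6 CPM in the WT standard pellet and at 4.93, 4.79 and 4.81 CPM in the FMR1 KO pellet. The library labelled WT fraction 5/6 replicate 3 of the standard preparation had 3.17 CPM of Fmr1, against 100.1 and 68.6 CPM in the other WT libraries of that group and between 5.98 and 10.7 CPM in FMR1 KO. Fitted differences for that fraction are given with and without this library. In 3 low RNA-seq libraries (WT replicate 2, FMR1 KO replicates 2 and 3), 10 genes took between 82.4 and 85.0% of counts, against 3.66 to 4.10% in the other 3, so other genes had few counts there.

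A ribosome that stops or moves slowly on an mRNA protects the stretch it covers from nuclease, and the number of RPFs on an mRNA reflects both how many ribosomes sit on it and how well each stretch survives digestion. Neuronal RNA granules are clusters of stalled ribosomes that are transported to dendrites and axons. FMRP, the protein made from Fmr1, binds many neuronal mRNAs and ribosomes and is best known as a repressor of translation whose loss causes fragile X syndrome.

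The 8 mRNAs encode proteins of unrelated pathways. Dcp1a is a cofactor of the Dcp2 enzyme that removes the 5′ cap of mRNAs. Ppil1 is a peptidyl-prolyl isomerase of the spliceosome. Pcsk1n (proSAAS) is a secreted precursor that inhibits prohormone convertase 1. Wdr45 is a beta-propeller protein needed to form autophagosomes. Nebl (nebulette) is an actin-binding protein of the nebulin family. Pde3b is a phosphodiesterase that degrades cAMP. Exph5 is an effector of Rab27 in vesicle trafficking, and Anapc5 is a subunit of the anaphase-promoting complex, the ubiquitin ligase of mitotic exit.

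In the standard pellet, 4 of these mRNAs had more RPFs in FMR1 KO (Dcp1a, Ppil1, Wdr45 and Pcsk1n) and 4 had fewer (Nebl, Exph5, Pde3b and Anapc5). For all 8 the FMR1 KO and WT libraries did not overlap, which was the case for 5.59% of the 13370 genes tested in that comparison, and which is what the choice of members fixed. No test of the 8 is given for this contrast or for those that share its libraries (occupancy, standard enrichment).

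Dcp1a (ENSMUSG00000021962, chr14:30479535-30527063, plus strand, GRCm38) was at 9.92, 10.9 and 8.05 CPM in the 3 WT pellet libraries of the standard preparation and at 159, 301 and 225 CPM in FMR1 KO. The lowest FMR1 KO library was far above the highest WT library. The means were 9.62 ± 1.44 and 228 ± 70.9 CPM (SD, n = 3), a 23.7-fold higher level and a fitted log2 difference of 4.70 (SE 0.414). In counts these were 211, 133 and 96 in WT against 2456, 3773 and 2803 in FMR1 KO.

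Ppil1 (ENSMUSG00000024007, chr17:29250803-29264186, minus strand) was at 12.9, 14.2 and 8.72 CPM in WT and at 147, 56.4 and 95.7 CPM in FMR1 KO. The groups were separate, although the FMR1 KO libraries spread widely. The means were 11.9 ± 2.87 and 99.6 ± 45.3 CPM (SD, n = 3), an 8.34-fold higher level (log2 difference 3.07, SE 0.281).

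Pcsk1n (ENSMUSG00000039278, chrX:7919822-7924410, plus strand) was at 16.4, 19.6 and 21.9 CPM in WT and at 60.6, 90.4 and 103 CPM in FMR1 KO, 4.38-fold higher on the means (log2 difference 2.21, SE 0.298). Wdr45 (ENSMUSG00000039382, chrX:7714333-7728206, plus strand) was at 15.6, 17.3 and 15.3 CPM in WT and at 47.9, 79.1 and 98.0 CPM in FMR1 KO, 4.66-fold higher (log2 difference 2.30, SE 0.309). In both, FMR1 KO replicate 1 was the lowest of its group and replicate 3 the highest, and all 3 lay above WT.

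Nebl (ENSMUSG00000053702, chr2:17343909-17731464, minus strand) was at 63.5, 63.9 and 102 CPM in WT and at 9.60, 9.81 and 10.7 CPM in FMR1 KO. The FMR1 KO libraries lay close together and far below WT, with means of 76.5 ± 22.2 and 10.0 ± 0.558 CPM (SD, n = 3), 7.63-fold lower (log2 difference -2.89, SE 0.298). Nebl is also a gene of heart muscle, and the 3 cardiac muscle markers listed (Myh6, Tnnt2 and Actc1, 0 of 3 undetected) summed to between 5.87 and 2597 CPM in the WT and between 5.12 and 1060 CPM in the FMR1 KO standard pellet, against at most 1.45 CPM in standard RNA. These high sums were Tnnt2 alone, at 2040, 2593 and 0.419 CPM in WT and 1.04, 0.558 and 1055 CPM in FMR1 KO, while Myh6 and Actc1 were at most 6.62 CPM in any library. The WT library with the least Tnnt2, replicate 3, had the most Nebl, and the FMR1 KO library with high Tnnt2 had 10.7 CPM of Nebl. The part of heart muscle RNA in the Nebl values was not tested.

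Exph5 (ENSMUSG00000034584, chr9:53301670-53377514, plus strand) was at 13.9, 7.12 and 9.90 CPM in WT and at 2.08, 0.957 and 1.52 CPM in FMR1 KO, 6.78-fold lower (log2 difference -2.75, SE 0.352). Pde3b (ENSMUSG00000030671, chr7:114415281-114539251, plus strand) was at 3.43, 4.58 and 3.94 CPM in WT and at 0.584, 0.718 and 0.881 CPM in FMR1 KO, 5.48-fold lower (log2 difference -2.40, SE 0.268). Both rest on few reads in FMR1 KO, namely 32, 12 and 19 counts of Exph5 and 9, 9 and 11 counts of Pde3b.

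Anapc5 (ENSMUSG00000029472, chr5:122787459-122821339, minus strand) had the smallest difference of the 8. It was at 44.3, 55.4 and 48.4 CPM in WT and at 32.7, 23.6 and 34.1 CPM in FMR1 KO, 1.64-fold lower (log2 difference -0.68, SE 0.0908). Its libraries were separate by a small margin.

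**Figure D1:**
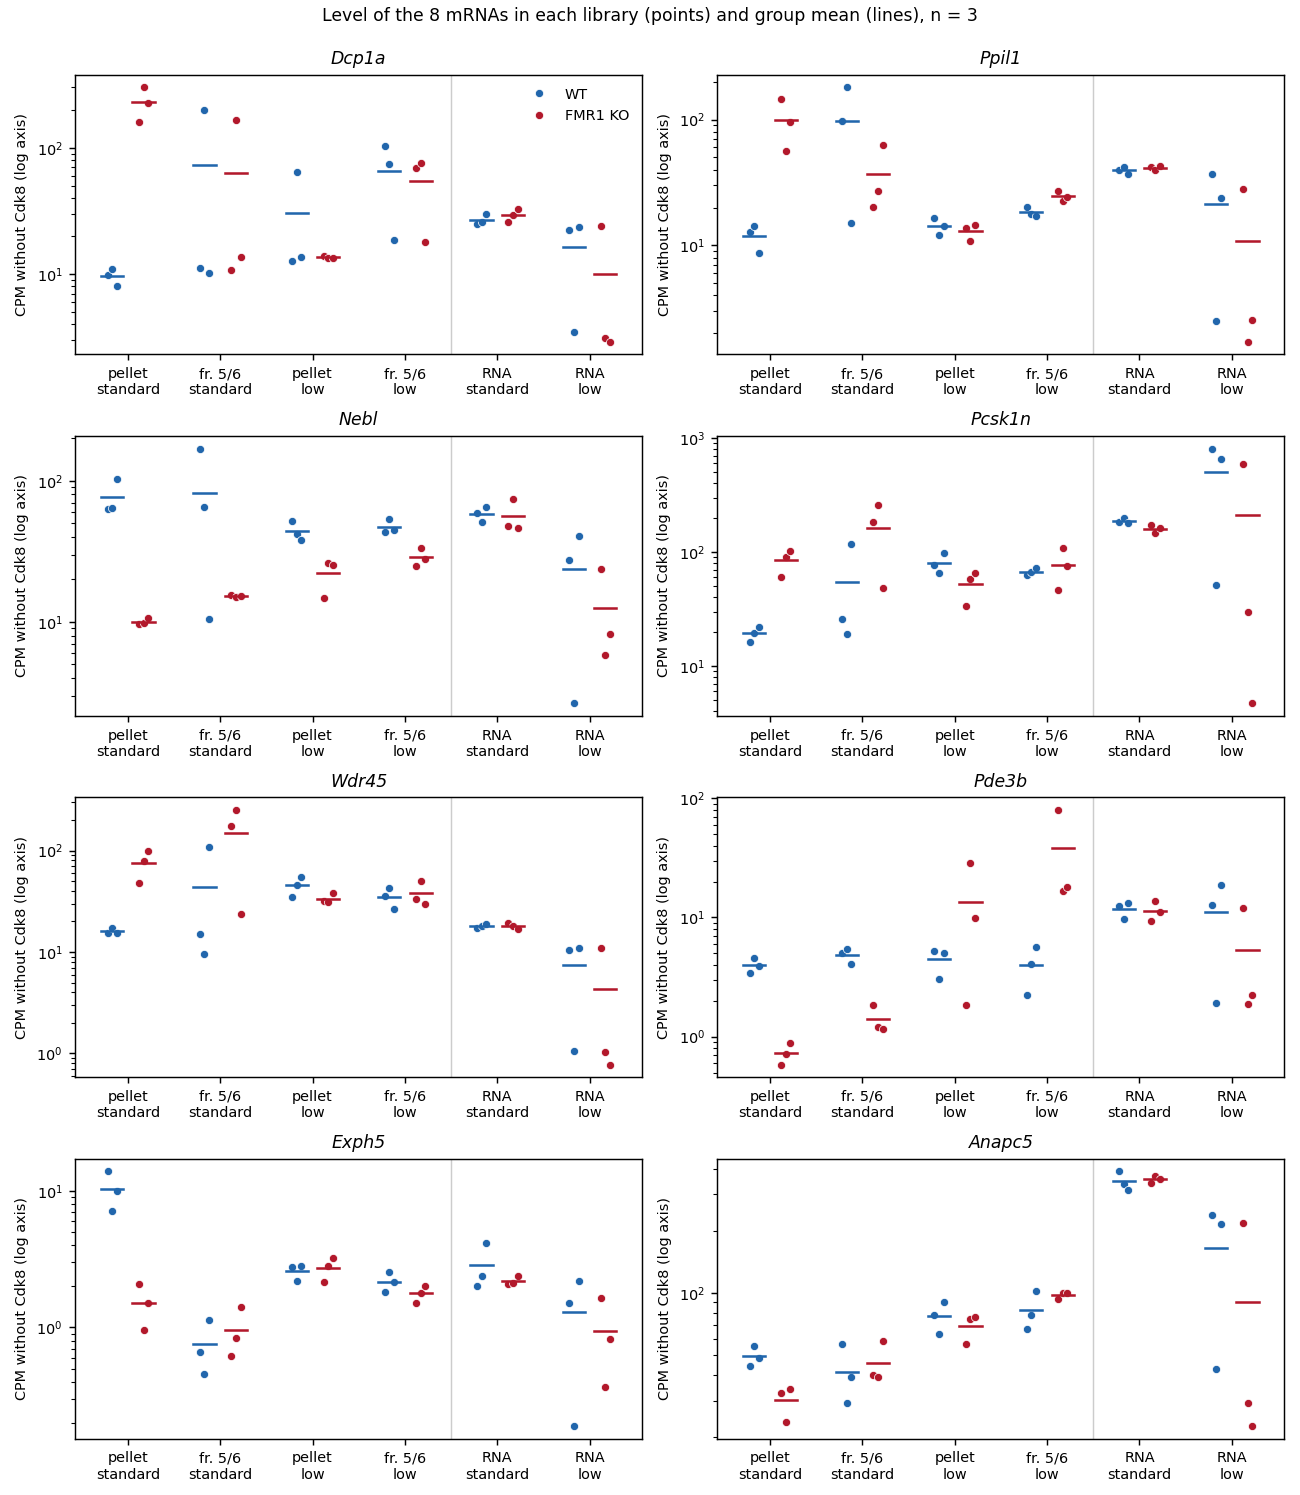
Level of the 8 mRNAs in every library, in CPM without Cdk8 on a log axis, by sample type, preparation and genotype, with 1 point per library. In the standard pellet all 8 mRNAs separate by genotype, from 23.7-fold higher for Dcp1a to 7.63-fold lower for Nebl, while the standard RNA-seq points of the genotypes overlap for 7 of the 8, Pcsk1n being lower in every FMR1 KO library.

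Log2 differences of whole-brain RNA in the standard preparation ranged from -0.34 (Exph5, 0.0088 without WT replicate 3) to 0.15 (Dcp1a). These RNA-seq libraries enter occupancy and so belong to the choice, and no test of the 8 is given for them. Dcp1a RNA was at 27.0 ± 2.76 CPM in WT and 29.3 ± 3.25 CPM in FMR1 KO (SD, n = 3). Nebl RNA was at 58.5 ± 7.51 and 56.2 ± 15.6 CPM, and Ppil1 RNA at 39.8 ± 2.53 and 41.5 ± 1.85 CPM. The only mRNA of the 8 whose standard RNA-seq libraries did not overlap between genotypes (8.03% of all genes) was Pcsk1n, at 183, 197 and 179 CPM in WT and 171, 146 and 161 CPM in FMR1 KO, which is lower where its pellet RPFs were higher. The occupancy differences were close to the pellet differences, at 4.54 for Dcp1a, 2.96 for Ppil1, 2.39 for Pcsk1n, 2.25 for Wdr45, -2.89 for Nebl, -2.44 for Exph5, -2.43 for Pde3b and -0.76 for Anapc5.

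Whether the extra RPFs lay at a single position or along the mRNA was read from the peak files, which list for each standard RPF library stretches of a transcript called as peaks of RPFs, each with a whole number that is read here as its height. The methods define a peak by a summit well above the transcript's average, but whether that applies to these lists and what the number counts are not given in the sources used here. Heights of 0 occur, in 0.392 to 0.834% of the peaks of a library. Only 3 of the 8 mRNAs had a peak in any of the 12 libraries, with 123 peaks in all. Of these, 107 were on Pcsk1n, 9 on Nebl and 7 on Ppil1, and Dcp1a, Wdr45, Pde3b, Exph5 and Anapc5 had 0. On Nebl and Ppil1, 3 of these peaks had a height of 0 and 5 a height of 1 to 3.

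For Dcp1a no peak was listed. The 3 FMR1 KO pellet libraries held between 2456 and 3773 Dcp1a counts and 0 peaks on its transcript. Among the transcripts with 0.5 to 2 times as many counts in the same library, between 55.2 and 63.4% had at least 1 peak. Wdr45 had 0 peaks with 738, 991 and 1224 counts, where 53.2 to 56.1% of transcripts with similar counts had a peak. Anapc5 had 0 peaks in WT pellets with 942, 678 and 577 counts, against 45.5 to 56.9% of similar transcripts. For the mRNAs with few counts 0 peaks is common: of transcripts with counts like those of Pde3b, 4.21 to 9.66% had a peak in the WT and at most 0.50% in the FMR1 KO pellet, and of those like Exph5, 11.6 to 38.5% in WT and 0.484 to 2.81% in FMR1 KO. Peaks were looked up on the transcript that the count table pairs with each gene (ENSMUST00000022535 for Dcp1a, ENSMUST00000115687 for Wdr45), and the other annotated transcripts of the 8 genes had 0 peaks. Which transcripts were searched for peaks is not given in the sources used here.

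Ppil1 had 1 peak with a height of 14 in a WT pellet library that held 274 counts, and 2 peaks with a height of 1 in the FMR1 KO pellet library that held 2262 counts. The other 2 libraries of each genotype had 0. Of transcripts with similar counts, 12.5 to 36.9% had a peak in the WT and 49.2 to 63.9% in the FMR1 KO pellet. No Ppil1 peak in the FMR1 KO pellet was above a height of 1. In fraction 5/6 a WT library had 1 peak with a height of 2, and an FMR1 KO library had 3, with heights of 0, 0 and 7.

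Pcsk1n had peaks in 12 of 12 libraries, between 5 and 12 each, where 21.7 to 60.4% of transcripts with similar counts had any. In the WT pellet it had 10, 9 and 10 peaks with summed heights of 193, 117 and 149, on 348, 240 and 261 counts. In the FMR1 KO pellet it had 12, 9 and 10 peaks with summed heights of 263, 176 and 143, on 934, 1133 and 1283 counts. Summed heights and numbers of peaks overlapped between genotypes. The counts did not, which the choice of Pcsk1n fixed. The peaks covered 342, 247 and 324 nt in WT and 319, 229 and 272 nt in FMR1 KO. The highest peak was 35, 16 and 23 in WT and 51, 38 and 18 in FMR1 KO, which overlap. The peaks of all 12 libraries fell on 48 sites when peaks were joined to the tallest remaining peak within 6 nt of its midpoint. Close peaks can thus fall on separate sites, such as those at nt 575.5 (4 libraries) and 582 (5 libraries), and the numbers depend on this rule. The lists give the ends of a peak but not its summit, and wide peaks make the midpoint a rough position. Of the 48 sites, 0 were in all 6 pellet libraries, 0 were in every FMR1 KO pellet and no WT pellet, 0 were in every WT pellet and no FMR1 KO pellet, and 20 were in 1 library only. With a wider window of 15 nt, 2 sites were in all 6 pellet libraries.

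The sequences shown are those under the 3 Pcsk1n sites found in at least 5 libraries, under the site of the tallest Pcsk1n pellet peak (nt 472 to 501, found in 3 libraries) and under the Nebl peaks that occurred in more than 1 library, since these are the positions at which peaks recurred or were tallest. They were read from GENCODE M21 transcripts (GRCm38), 5′ to 3′ on the mRNA, positions are counted from the first nucleotide of the transcript and may be off by 1, and capitals mark the 7 bases at the centre of the peak.
Pcsk1n 263 to 292: gagacgagcacTCCCCTCcgcttgcgtcgg
Pcsk1n 360 to 389: aggccgagagaCAGGAACgcgcgcgtgctg
Pcsk1n 472 to 501: gcccttggcccCCGACGAtgacccggacgc
Pcsk1n 568 to 597: acttgtccccgCCCCTGCcgctgcgccgcg
Nebl 358 to 387: agcagtccttcACCACAGtggcggatacac
Nebl 414 to 443: agtgaactgcaGAGCCAGgtcaagtacaaa

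All 6 stretches are coding sequence. The Pcsk1n coding sequence runs from 110 to 883 of ENSMUST00000041096, and 105 of its 107 peaks fell there, the other 2 in the 3′ UTR. The 4 Pcsk1n stretches had a GC content of 70.0 to 80.0%, against 57.3% for the whole transcript. The latter includes the untranslated regions, and the coding sequence alone was not measured, so the stretches are not shown to be GC-rich for coding sequence. With peaks joined by that rule, the site centred at nt 374 was the most repeated and was present in 9 of 12 libraries. Its heights were 25 and 15 in 2 WT pellet libraries and 16, 16 and 16 in the 3 FMR1 KO pellet libraries. The site at nt 277 was in 5 of the 6 pellet libraries, with heights of 12, 15 and 18 in WT and 15 and 15 in FMR1 KO, and in 0 fraction 5/6 libraries. The heights at these sites overlapped between genotypes. The Nebl peaks were at a height of 20 in a WT and 18 in an FMR1 KO fraction 5/6 library at nt 372, and at 3 in a WT pellet library, 10 in an FMR1 KO pellet library and 14 in an FMR1 KO fraction 5/6 library at nt 428. In the pellet, Nebl had a peak in 2 of 3 WT and 1 of 3 FMR1 KO libraries, against 52.1 to 59.5% and 17.1 to 23.5% of transcripts with similar counts.

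**Figure D2:**
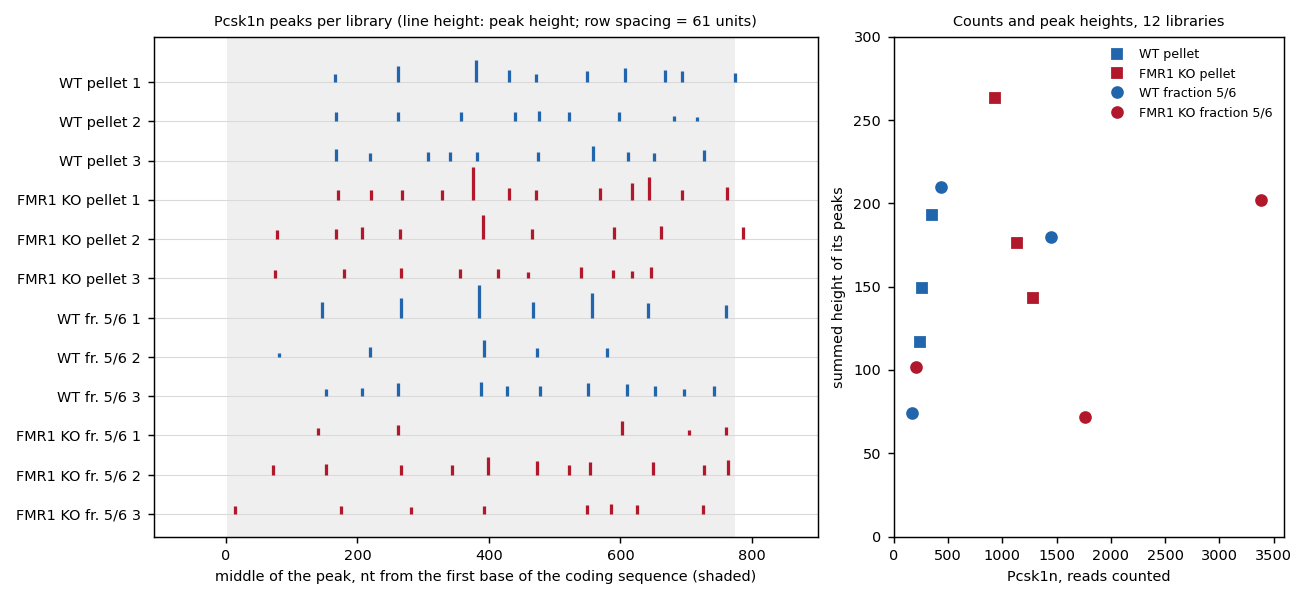
Peaks on the Pcsk1n transcript in the 12 RPF libraries of the standard preparation, as peak height against distance in nucleotides from the first base of the coding sequence, which is shaded, and the summed height of its peaks against the count of Pcsk1n in each library. Peaks are spread over the coding sequence in both genotypes and both fractions. With peaks joined to the tallest remaining peak within 6 nt, 0 sites are in all 6 pellet libraries (2 with 15 nt).

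Fraction 5/6 of the standard preparation comes from the same gradients and is not known to have been used for the choice. There, the edgeR quasi-likelihood test called 0 of the 7 mRNAs tested (0% of all genes were called), adjusted p-values ran from 0.826 to 0.925, and 2 of the 7 had an unadjusted p under 0.05, as did 590 of 13075 genes. DESeq2 called Pde3b (0.581% of all genes). Without the library labelled WT replicate 3, edgeR again called 0 of the 7, while it called Fmr1 (edgeR adjusted p = 0.00137). Over all genes, leaving out replicates or single libraries gave 0 to 11 calls in this comparison.

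Pde3b was the only one of the 7 with no overlap between genotypes, in the direction seen in the pellet. It was at 4.99, 5.45 and 4.07 CPM in WT and at 1.86, 1.21 and 1.17 CPM in FMR1 KO. Groups were separate in that direction for 0.841% of all genes. The library labelled WT replicate 3 lay with the other WT libraries for Pde3b, unlike for Fmr1. The log2 difference was -2.01 (SE 0.427, edgeR unadjusted p = 0.00272, adjusted p = 0.826, DESeq2 adjusted p = 0.0102), on 18, 16 and 5 counts in FMR1 KO, and -2.18 (SE 0.442, edgeR adjusted p = 0.620) without that library.

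Nebl was at 169, 65.6 and 10.4 CPM in WT and at 15.6, 15.0 and 15.2 CPM in FMR1 KO. The low WT value was that of the library with Fmr1 at the FMR1 KO level. The log2 difference was -2.66 (SE 0.873, edgeR adjusted p = 0.826) with it and -3.18 (SE 0.309, adjusted p = 0.149) without it. The cardiac muscle markers summed to between 5.34 and 4904 CPM in WT and between 3.92 and 5.76 CPM in FMR1 KO in this fraction, again through Tnnt2, at 4898, 0.795 and 3230 CPM in WT. Tnnt2 was near 0 in WT replicate 2, where Nebl was at 65.6 CPM, and high in WT replicate 3, where Nebl was at the FMR1 KO level. Here too the part of heart muscle RNA was not tested.

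For Dcp1a and Ppil1 the mean in fraction 5/6 was not higher in FMR1 KO. Dcp1a was at 11.2, 198 and 10.2 CPM in WT and at 10.8, 165 and 13.8 CPM in FMR1 KO. Replicate 2 was high in both genotypes and the other 2 replicates low in both (log2 difference -0.75, SE 1.62, edgeR adjusted p = 0.925). Without WT replicate 3 the log2 difference was -1.29 (SE 1.66, edgeR adjusted p = 0.935). Ppil1 was at 96.8, 181 and 15.0 CPM in WT and 20.1, 27.0 and 63.3 CPM in FMR1 KO, a log2 difference of -2.02 (SE 0.909, edgeR adjusted p = 0.826), and -2.55 (SE 0.504, edgeR adjusted p = 0.620) without WT replicate 3. The enrichment difference (pellet relative to fraction 5/6, FMR1 KO against WT), which contains the pellet libraries and is a description, was 5.43 (SE 1.98) for Dcp1a, 5.08 (SE 1.08) for Ppil1 and -2.75 (SE 0.533) for Exph5. For the other 5 it lay between -0.53 (Anapc5) and 0.69 (Pcsk1n). Without WT fraction 5/6 replicate 3 it was 5.95 for Dcp1a, 5.58 for Ppil1 and -3.12 for Exph5, and it went from -0.25 to 0.26 for Nebl.

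Pcsk1n was at 26.0, 19.2 and 117 CPM in WT fraction 5/6 and at 182, 256 and 48.3 CPM in FMR1 KO, and Wdr45 was at 15.1, 9.54 and 108 CPM in WT and at 176, 251 and 23.8 CPM in FMR1 KO. In both mRNAs the library labelled WT replicate 3 lay above FMR1 KO replicate 3 and below the other 2 FMR1 KO libraries. The log2 differences of 1.51 (SE 0.895) and 1.74 (SE 1.17) had an edgeR adjusted p of 0.826 each. Without WT replicate 3 they were 2.62 and 3.43, with an adjusted p of 0.741 each. Without that library the enrichment differences of these mRNAs were -0.45 and -1.17 in place of 0.69 and 0.55. Anapc5 overlapped between genotypes in fraction 5/6 (41.6 ± 13.7 against 45.7 ± 10.9 CPM, SD, n = 3), with a log2 difference of -0.16 (SE 0.156, edgeR adjusted p = 0.844) and of -0.25 (SE 0.140, edgeR adjusted p = 0.835) without WT replicate 3. Exph5, with 4 to 14 counts per library, was too low to test.

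The low preparation gave separate libraries of the same fractions. In its pellet, edgeR called 0 of the 8 (0.0197% of all genes), adjusted p-values ran from 0.907 to 0.991, and 1 of the 8 had an unadjusted p under 0.05, as did 661 of 15264 genes. Nebl was at 52.3, 41.7 and 37.8 CPM in WT and 14.8, 26.2 and 25.5 CPM in FMR1 KO, with no overlap (8.80% of all genes were separate in that direction). Its log2 difference of -0.89 (SE 0.216, edgeR unadjusted p = 0.0062, adjusted p = 0.907) passed the threshold with DESeq2 (adjusted p = 0.0283, 0.583% of all genes called).

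Of the 4 mRNAs that were higher in the FMR1 KO standard pellet, 0 were higher in the low pellet with separate groups (2.00% of all genes were). Dcp1a was at 12.6, 64.5 and 13.6 CPM in WT and at 13.9, 13.5 and 13.5 CPM in FMR1 KO, so a single WT library stood high and the other 5 lay together. Its log2 difference was -1.09 (SE 0.693, edgeR adjusted p = 0.907) and 0.19 (adjusted p = 0.798) without that library. Ppil1 was at 14.3 ± 2.18 and 13.0 ± 1.87 CPM (SD, n = 3). Pcsk1n was at 77.3, 64.8 and 97.5 CPM in WT and 33.3, 57.6 and 65.2 CPM in FMR1 KO (log2 difference -0.52, SE 0.258, edgeR adjusted p = 0.907), and Wdr45 was at 45.3 ± 9.82 and 33.7 ± 3.70 CPM. Exph5 (2.59 ± 0.357 and 2.74 ± 0.539 CPM) and Anapc5 (77.3 ± 13.6 and 69.4 ± 11.1 CPM) overlapped.

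In fraction 5/6 of the low preparation, edgeR called 0 of the 8 (0.0445% of all genes), adjusted p-values ran from 0.544 to 0.942, and 3 of the 8 had an unadjusted p under 0.05, as did 1348 of 15740 genes. Nebl was lower in every FMR1 KO library, at 43.3, 53.2 and 44.9 CPM in WT and 24.7, 33.1 and 28.1 CPM in FMR1 KO (log2 difference -0.73, SE 0.127, edgeR unadjusted p = 0.00107, adjusted p = 0.544, DESeq2 adjusted p = 0.000554, with 1.25% of all genes called by DESeq2). Groups were separate in that direction for 7.80% of genes. Ppil1 was slightly higher in every FMR1 KO library, at 20.3, 17.8 and 17.3 CPM against 27.2, 22.4 and 24.3 CPM (log2 difference 0.40, SE 0.154, edgeR adjusted p = 0.573), and groups were separate in that direction for 9.29% of genes.

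Pde3b lay in the opposite direction to the standard preparation. In the low fraction 5/6 it was at 2.22, 4.08 and 5.62 CPM in WT and at 79.7, 16.6 and 18.0 CPM in FMR1 KO, a log2 difference of 3.29 (SE 0.766, edgeR unadjusted p = 0.00484, adjusted p = 0.571). DESeq2 called it (adjusted p = 6.57e-05), and without FMR1 KO replicate 1, the highest library, the log2 difference was 2.09. In the low pellet it was at 5.23, 3.07 and 5.04 CPM in WT and at 1.83, 28.8 and 9.84 CPM in FMR1 KO, so 1 FMR1 KO library lay below WT and 2 above (log2 difference 1.68, SE 0.858, edgeR adjusted p = 0.907). Its 3277, 1001 and 702 counts in FMR1 KO low fraction 5/6 contrast with 18, 16 and 5 counts in the standard fraction 5/6.

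The other mRNAs overlapped between genotypes in low fraction 5/6, with edgeR adjusted p-values from 0.633 (Anapc5) to 0.942 (Wdr45). Dcp1a was at 104, 74.5 and 18.5 CPM in WT and at 69.4, 75.6 and 18.1 CPM in FMR1 KO, with replicate 3 low in both genotypes. For enrichment in the low preparation edgeR called 0 of the 8 (0.0126% of all genes), 0 had an unadjusted p under 0.05 where 1334 of all genes did, and DESeq2 called 0 (0.578% of all genes). In the low RNA-seq libraries edgeR and DESeq2 called 0 of the 8 (0% and 0.00634% of all genes), the genotypes overlapped for 8 of 8 (0.133% of all genes did not), and 0 of the 8 had an unadjusted p under 0.05 where 344 of all genes did. Without the 3 libraries in which 10 genes took most counts, FMR1 KO replicate 1 was left alone, so no test is given.

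**Figure D3:**
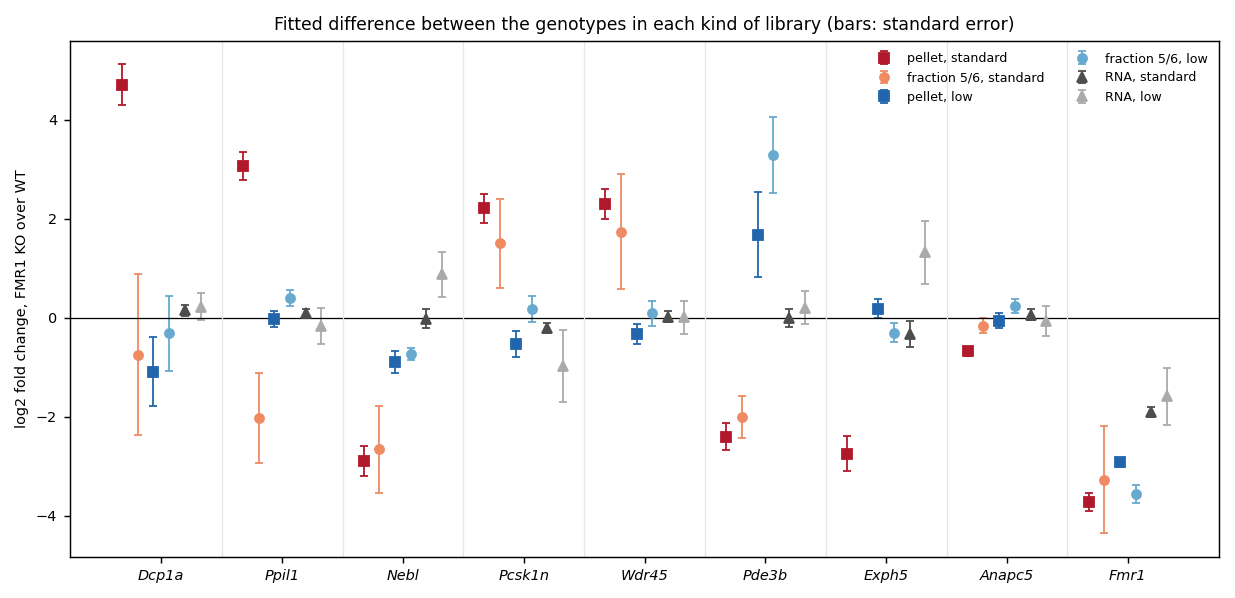
Fitted log2 difference, FMR1 KO minus WT, with its SE, for each of the 8 mRNAs and for Fmr1 in each comparison of pellet, fraction 5/6 and RNA in both preparations (edgeR, n = 3 libraries per genotype), except Exph5 in standard fraction 5/6, which was too low to fit. The values of the 8 mRNAs run from 4.70 to -2.89 in the standard pellet, which chose the mRNAs, while their RNA values of the standard preparation stay between -0.34 and 0.15.

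Nebl was thus the mRNA with a negative log2 difference in each of the 4 RPF comparisons, from -2.89 in the standard pellet to -0.73 in the low fraction 5/6, with RNA at -0.02 in the standard preparation. The library in which Nebl went against its WT label was the one in which Fmr1 did too. Over the 24 RPF libraries the gene whose log2(CPM + 1) was most like that of Nebl, among 13772 genes with a mean of at least 1 CPM, was Fmr1 itself (Pearson r = 0.874), followed by Wdfy1 (r = 0.846). These libraries share genotype groups, pools and depth, and they include the 6 standard pellet libraries that chose Nebl for a low level in FMR1 KO, so a gene lost in FMR1 KO ranks high by that choice and r is a description, here and for the other members below. Wdfy1 was at 27.1 ± 4.14 CPM in the WT and 2.26 ± 0.167 CPM in the FMR1 KO standard pellet (SD, n = 3), and its RNA was lower too (82.1 against 16.5 CPM on the means), unlike the RNA of Nebl. In the library labelled WT fraction 5/6 replicate 3, Wdfy1 was at 1.71 CPM, against 31.7 and 22.0 CPM in the other WT libraries and 3.39 ± 1.24 CPM in FMR1 KO (SD, n = 3), so Fmr1, Wdfy1 and Nebl all go against the WT label there, and whether the library is mislabelled was not tested.

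Wdr45 and Pcsk1n were each other's most similar gene by the same measure (r = 0.920). Over the 12 standard RPF libraries their CPM had r = 0.997 and a slope of 1.01, and Pcsk1n counts were between 1.02 and 2.03 times those of Wdr45 in every library. In FMR1 KO fraction 5/6 the counts were 1764 and 1711 in replicate 1, 3380 and 3311 in replicate 2, and 207 and 102 in replicate 3. In the RNA-seq libraries the count of Pcsk1n was between 6.06 and 77.4 times that of Wdr45, and in the low RPF libraries r was 0.638. The genes lie on the same strand of the X chromosome and do not overlap. The longest stretch shared between any of their annotated transcripts, on either strand, was 12 nt. Wdr45 shares 818 exonic nt on the same strand with Gm45208, whose level in the standard pellet was 20.5 ± 1.66 CPM in WT and 16.9 ± 4.07 CPM in FMR1 KO, a difference in the opposite direction (log2 difference -0.25, SE 0.109, edgeR adjusted p = 0.867).

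The gene most like Dcp1a was Cacna1d (r = 0.845), a subunit gene of an L-type calcium channel that lies on the opposite strand and overlaps it. The gene intervals share 11921 nt on chromosome 14 and 0 exonic nt, and the longest stretch shared between their transcripts was 14 nt. In the FMR1 KO standard pellet Dcp1a had 2456, 3773 and 2803 counts and Cacna1d 2875, 3781 and 2735. In WT the counts were 211, 133 and 96 for Dcp1a and 1054, 203 and 633 for Cacna1d. Over the 24 RPF libraries the count of Dcp1a was between 0.113 and 1.97 times that of Cacna1d, with a median of 0.698, and in standard fraction 5/6 replicate 2, where both were high, it was 0.660 times in WT and 0.546 times in FMR1 KO. Over the 24 RPF libraries the CPM of the genes had r = 0.930 and a slope of 1.09, and over the 12 RNA-seq libraries r = 0.305. Cacna1d was at 39.7 ± 20.1 CPM in WT and 236 ± 59.4 CPM in FMR1 KO in the standard pellet (SD, n = 3), a difference that did not pass the edgeR test (log2 difference 2.65, SE 0.578, adjusted p = 0.867). Whether reads were assigned by strand is not given in the sources used here. The overlap was computed on GENCODE M21, whereas the authors used an Ensembl annotation. The part of read assignment in the likeness of these genes was not tested.

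**Figure D4:**
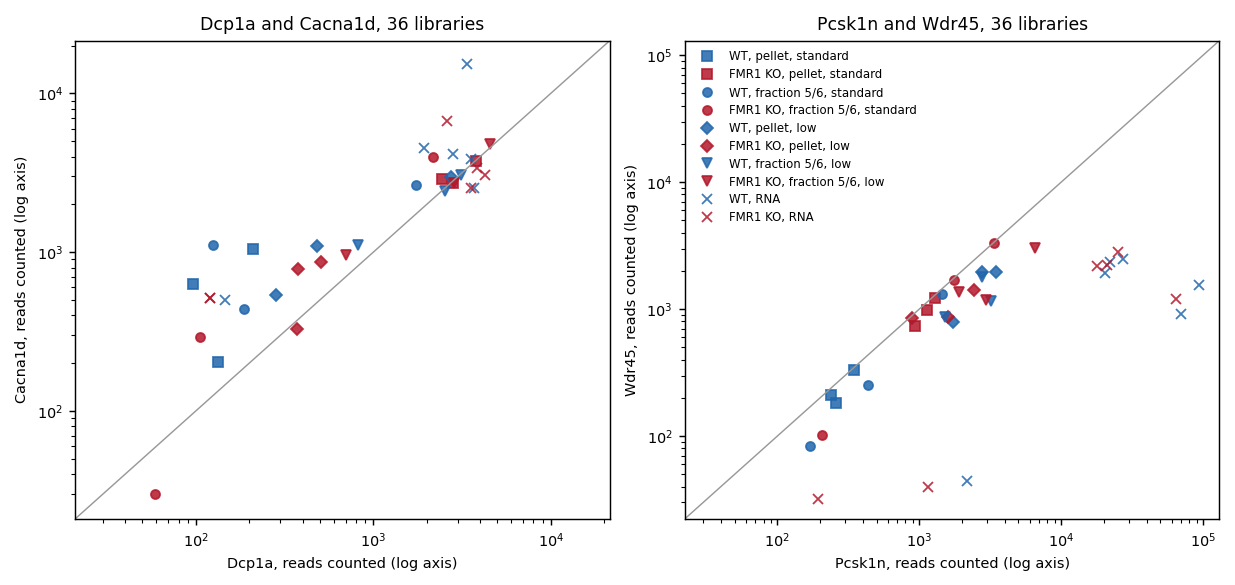
Counts of Cacna1d against Dcp1a and of Wdr45 against Pcsk1n in each of 36 libraries, 1 point per library on log axes, with a line of equal counts. The Pcsk1n count lies between 1.02 and 2.74 times that of Wdr45 in the RPF libraries and between 6.06 and 77.4 times in RNA-seq, and Dcp1a points lie on both sides of the line.

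By the same measure over the 24 RPF libraries, Dcp1a was next most like Inhbb (r = 0.647), Ppil1 like a row named Atp5o.1 (r = 0.770) and Ccdc163 (r = 0.756), Pcsk1n like Iqcg (r = 0.699), Wdr45 like Brip1 (r = 0.722), Pde3b like Tdrd9 (r = 0.817) and Myo18b (r = 0.789), Exph5 like Clip1 (r = 0.782) and Npat (r = 0.770), and Anapc5 like Actr3b (r = 0.975) and Nrbp2 (r = 0.974). Among the 8 themselves, the next strongest positive correlation after Pcsk1n with Wdr45 (r = 0.920) was Pde3b with Anapc5 (r = 0.675), and the most negative was Nebl with Wdr45 (r = -0.70).

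None of the nearest tested genes on each side passed the edgeR test in the standard pellet. In the standard pellet 12 of the 16 neighbours had a log2 difference between -0.50 (Insc) and 0.34 (Poglut3), namely Tkt, Cpne5, Plxdc2, A930004D18Rik, Gpkow, Gm45208, Psma1, Insc, Ddx10, Poglut3, Camkk2 and Rnf34. The other 4 were Cacna1d, Hdac6 (1.93) and Timm17b (0.78) beside Pcsk1n, and BC004004 (1.44) beside Ppil1, with edgeR adjusted p-values from 0.867 to 0.999. The value of Hdac6 came from a single FMR1 KO library, at 178, 1167 and 193 CPM against 169, 185 and 145 CPM in WT. Timm17b was at 8.30, 95.9 and 10.2 CPM in FMR1 KO and at 66.9, 10.5 and 5.37 CPM in WT, so high libraries occurred in both genotypes. BC004004 had the signs of Ppil1 also in standard fraction 5/6 (log2 difference -1.76, against -2.02 for Ppil1) and standard enrichment (3.18 against 5.08). In low fraction 5/6 the signs differed (-0.20 against 0.40).

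Other genes of the families and complexes of the 8 proteins were listed, 97 in all, and edgeR called 0 of them in each of 9 comparisons, also where it called genes elsewhere (standard pellet 0.0150%, standard RNA 0.0735% and occupancy 0.0672% of all genes). DESeq2 called 0 of them in the standard pellet (0.494% of all genes), standard RNA (0.147%), low RNA (0.00634%) and standard enrichment (0.300%), 1 each in standard fraction 5/6 (0.581%), the low pellet (0.583%), occupancy (0.360%) and low enrichment (0.578%), and 4 in low fraction 5/6 (1.25%). These genes are named because of their calls, after their values were seen. In the standard pellet 93 were tested, their median log2 difference was -0.02 (0.00 over all genes), and 5 (5.38%) had an unadjusted p under 0.05, against 5.30% of all genes. Of 20 decapping and P-body genes the median was 0.01, and Edc4, the scaffold of the decapping complex, was at 157 ± 9.45 CPM in WT and 160 ± 42.0 CPM in FMR1 KO (SD, n = 3). Of 8 spliceosomal cyclophilins the median was 0.15, with Ppil4 at 0.15. Of the 3 nebulin-family genes it was 0.10, with Lasp1 at 0.10, but in standard fraction 5/6 it was -3.56. Of 9 granin and convertase genes it was -0.05, with Cpe, the carboxypeptidase that trims prohormones, at -0.23. Of 15 autophagosome genes it was -0.08, with the lipid transfer protein Atg2b at -0.08. Of 16 phosphodiesterases it was -0.08, and Pde4a, at -0.92, had an SE of 1.09. Of 7 tested Rab27 genes it was -0.15, with Rab27a at -0.20, and of 15 anaphase-promoting complex genes it was 0.01, with Anapc1, its largest subunit, at 235 ± 8.61 CPM in WT and 236 ± 76.9 CPM in FMR1 KO.

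In standard fraction 5/6 that median came from a single library. Neb (nebulin) was at 110, 1.82 and 3.25 CPM in WT and at 1.24, 1.29 and 0.934 CPM in FMR1 KO (log2 difference -5.02, SE 1.63, edgeR adjusted p = 0.826), and Nrap at 36.0, 0 and 1.71 CPM in WT and 0.516, 1.06 and 2.33 CPM in FMR1 KO. WT replicate 1 was thus high for Neb, Nrap and Nebl, and the other 5 libraries were low for Neb and Nrap. Tnnt2 was high in that library and in WT replicate 3, and Myh6 and Actc1 were not, as given above. The part of muscle RNA in these values was not tested. The DESeq2 call there was the phosphodiesterase Pde4c, at 20.1, 10.4 and 4.07 CPM in WT and 0.825, 3.18 and 0.233 CPM in FMR1 KO (DESeq2 adjusted p = 0.0254), lower in FMR1 KO as Pde3b was.

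In low fraction 5/6 the 4 DESeq2 calls were Pde5a, Vgf, Ppil4 and Ppig. Pde5a, which degrades cGMP, was at 9.01, 10.1 and 10.3 CPM in WT and at 31.6, 4587 and 3331 CPM in FMR1 KO (edgeR log2 difference 8.04, SE 1.74, adjusted p = 0.571, DESeq2 adjusted p = 4.00e-06), and edgeR called it without FMR1 KO replicate 1. In the low pellet its high libraries were in both genotypes, at 1818, 15.7 and 10.1 CPM in WT and 9.75, 6413 and 132 CPM in FMR1 KO. The cyclophilins Ppil4 (DESeq2 log2 difference -0.47) and Ppig (-0.43) were lower, where Ppil1 was slightly higher. Vgf, a granin, was at 116, 120 and 26.6 CPM in FMR1 KO against 20.9, 31.8 and 26.3 CPM in WT. The Rab effector Rph3a was the call in the low pellet (DESeq2 log2 difference 0.92, at 225, 222 and 189 CPM in WT and 317, 435 and 368 CPM in FMR1 KO) and in low enrichment (1.41), and the autophagy kinase Ulk2 was the one in occupancy (-0.55).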

How the data were processed

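The deposited gene-level count table held raw counts in 36 libraries, and 12 deposited peak lists gave positions on transcripts and a whole number per peak (signal, read as its height). Per the labels and the study's methods, the authors trimmed reads with cutadapt 2.10, removed non-coding RNA with Bowtie2 2.3.5, aligned to GRCm38 with STAR 2.7.8a, removed duplicates with Picard and SAMtools 1.19.2 and counted with featureCounts 2.2.0. The effect of removing duplicates and of filtering RNA on the counts was not tested.

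Libraries were grouped by the labels. Protein-coding genes kept by filterByExpr were fitted with edgeR 4.0.16 in R 4.3.3 (TMM, quasi-likelihood test, Benjamini-Hochberg over all genes tested, threshold 0.05), each comparison on its own libraries, with occupancy and enrichment as interactions. CPM used the total without Cdk8. DESeq2 1.42.0, library size alone, no filter, Cdk8 removed, all rows of the table, a replicate block, all groups in 1 fit and leaving out libraries were alternatives. The fits were tested on simulated data for standard fraction 5/6, the low pellet and low fraction 5/6 among others. In these 3, simulated 2-fold changes were called in 2.99, 11.9 and 5.97% of cases. Simulated 4-fold changes were called in 44.8, 68.7 and 73.1%, and 16-fold changes in 97.0, 86.4 and 90.9%. A gene that was not called is therefore not shown to be unchanged. Replicate numbers were not taken as pairs. Genes were named by a rule: the 8 mRNAs, Fmr1, the highest member of each family list, nearest neighbours and the 2 genes most alike in log2(CPM + 1). Wdfy1 is one of the latter, and Timm17b and Hdac6 are neighbours. Outside this rule, other family genes such as Neb and Pde5a were named after their values were seen. The members and lists were chosen with earlier results of these data known. Coordinates and transcripts are from GENCODE M21. Peak lists covered the standard RPF libraries only. Other peaks were not analysed here.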

Additional observations from a re-analysis of the deposited data

Results flagged for a closer look

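By the labels, Pde3b in fraction 5/6 was lower in every FMR1 KO library of the standard preparation and higher in every FMR1 KO library of the low preparation. The standard FMR1 KO values rest on 18, 16 and 5 counts. The standard WT libraries include the one labelled replicate 3, in which Fmr1 was at the FMR1 KO level and Pde3b was not. The log2 ratio of the mean CPM was -1.78 in the former and 3.26 in the latter. The difference between the preparations was not tested. The preparations also differ in MgCl2, nuclease and the share of counts taken by Cdk8, and the part of these in the result was not tested.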

How the results depend on the processing

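Counts of genes past the threshold changed with the tool, the scaling and the groups fitted together. DESeq2 called 66 genes in the standard pellet (2 with edgeR), 76 in standard fraction 5/6 (0), 89 in the low pellet (3), 196 in low fraction 5/6 (7), 24 in standard RNA (12), 1 in low RNA (0), 59 for occupancy (11), 41 for standard enrichment (0) and 92 for low enrichment (2). Library size alone gave 287 in the standard pellet, 201 in standard fraction 5/6, 11 for standard enrichment and 1 for low enrichment. All groups in 1 fit gave 116, 185, 104 and 151 in the standard pellet, standard fraction 5/6, low pellet and low fraction 5/6, and 60 in low RNA. The cause of these differences was not tested.

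With the replicate number as a block, the counts were 0 in the standard pellet, 0 in the low pellet, 1 in low fraction 5/6, 7 for occupancy, 1 for standard enrichment and 4 for low enrichment. Same-numbered libraries did not all deviate together, so the numbers were not taken as pairs.

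Leaving out replicates or single libraries gave 1 to 8 genes in the standard pellet, 0 to 11 in standard fraction 5/6, 0 to 11 in the low pellet, 4 to 23 in low fraction 5/6, 8 to 15 in standard RNA, 17 to 18 for occupancy, 0 to 9 for standard enrichment and 4 to 9 for low enrichment. Without low RNA libraries WT replicate 2, KO replicate 2 and KO replicate 3, an alternative chosen after seeing the data, 35 genes were called in low RNA. That fit kept KO replicate 1 as the only FMR1 KO library, so its spread came from WT replicates 1 and 3 alone. Its count of called genes therefore cannot show a genotype difference and is not read as a result. The number of Pcsk1n sites in all 6 pellet libraries was 2 with a window of 15 nt, and 0 to 1 when libraries were left out.

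Among the members, signs in the standard pellet and in occupancy held under every alternative run. The members were chosen on those values, so this was largely fixed by the choice and is a description. In standard RNA and standard enrichment, which are descriptions, some changed with replicates or libraries left out. RNA ran from -0.39 to 0.19 for Nebl, from -0.049 to 0.10 for Wdr45, from -0.31 to 0.16 for Pde3b, from -0.53 to 0.0088 for Exph5 and from -0.014 to 0.19 for Anapc5. Enrichment ran from -0.87 to 0.49 for Nebl, from -0.78 to 1.36 for Pcsk1n, from -1.76 to 1.45 for Wdr45 and from -0.96 to 0.21 for Pde3b. With library size alone Wdr45 RNA was also below 0, and in 1 fit of all groups Nebl and Pde3b RNA were above 0. In the other comparisons signs changed in uncalled values. With library size alone, standard fraction 5/6 gave 0.040 for Dcp1a and 0.28 for Anapc5 (log2), and low RNA gave -0.73 for Dcp1a, -0.93 for Nebl, -0.80 for Wdr45, -1.06 for Pde3b and -0.48 for Exph5. In 1 fit of all groups Wdr45 in low RNA was -0.029. Without the 3 low RNA libraries named above, with KO replicate 1 as the only FMR1 KO library left, Nebl was -0.45, Pde3b -0.31, Exph5 -0.093 and Anapc5 0.010. With replicates left out, Dcp1a ran from -3.28 to 2.60 in standard fraction 5/6, from -1.53 to 0.24 in the low pellet, from -0.77 to 0.24 in low fraction 5/6 and from -1.51 to 0.72 for low enrichment. Ppil1 ran from -0.10 to 0.11 in the low pellet and from -0.37 to 0.18 in low RNA. Anapc5 ran from -0.17 to 0.073 in the low pellet and from -0.21 to 0.093 in low RNA. In low fraction 5/6 Pcsk1n ran from -0.14 to 0.41 and Wdr45 from -0.14 to 0.25. Wdr45 ran from -0.14 to 0.21 and Pde3b from -0.015 to 0.42 in low RNA, and for low enrichment Nebl ran from -0.36 to 0.076 and Pde3b from -3.36 to 0.43. Fmr1 enrichment in the standard preparation ran from -1.14 to 0.26, and was 0.082 without WT fraction 5/6 replicate 3.

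Members past the threshold elsewhere were Nebl in standard fraction 5/6 with library size alone (adjusted p = 0.019) and in 1 fit of all groups (edgeR adjusted p = 0.00782), Ppil1 there in 1 fit of all groups (adjusted p = 0.0377), Wdr45 there without replicate 3 of both genotypes (edgeR adjusted p = 0.0409) and Pde3b in low fraction 5/6 in 1 fit of all groups (edgeR adjusted p = 0.00491). Of the listed family genes, library size alone called Neb, Nrap and Pde4c in standard fraction 5/6, and all groups in 1 fit called Neb, Nrap and Edc4 there, Rph3a in the low pellet, Pde5a in low fraction 5/6 and Sytl3 in low RNA. Depth limits Exph5 and Pde3b most, at 12 to 32 and 9 to 11 counts in the FMR1 KO standard pellet.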
